A study of Mus musculus with 3 samples.

Results

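Methylation at CCGG sites was examined in and within 10 kb of 8 genes of the naive pluripotency network, Klf2, Klf4, Klf5, Tbx3, Tfcp2l1, Zfp42, Prdm14 and Dppa3. The genes were chosen by name, with earlier results of these data known, and they are 8 of the 21938 protein-coding genes of the annotation used. Their windows hold 423 CCGG motifs in the mouse reference GRCm38, 96 within 1 kb of a start site (promoter), 147 in the rest of the gene (body) and 180 in the flanks. Of the 1026118 CCGG sites listed in any library, 259 lay in these windows. There were 3 MethylRAD libraries, with 1 library per condition. The first came from undifferentiated E14Tg2A cells, an established mouse embryonic stem cell (ESC) line, kept with leukemia inhibitory factor (LIF, day 0). The second came from the same line on day 7 after LIF withdrawal and retinoic acid addition (untreated), and the third from day 7 cells differentiated in the same way with 3 mM pargyline, an inhibitor of the histone demethylase LSD1 (treated). The day and the dose are those of the study's methods, whereas the labels give neither, and the deposited tables of both differentiated samples are marked RA4. What that mark stands for is not given in the sources used here, so the day is uncertain. All samples were whole cultures of 1 line, and the cell composition of the cultures was not measured in these data.

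Naive pluripotency is the state of the preimplantation epiblast, which mouse ESCs retain in culture with LIF. LIF signals through STAT3 and maintains transcription factors such as KLF4, TFCP2L1 and TBX3, which sustain each other's genes and those of the core factors. On differentiation, these genes are silenced, their enhancers lose active histone marks, and DNA methyltransferases may methylate regulatory DNA. The promoters of CpG-rich genes usually stay free of methylation, whereas CpG-poor DNA of gene bodies and intergenic regions is mostly methylated.

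MethylRAD counts the short fragments that FspEI, a methylation-dependent endonuclease, releases around a methylated cytosine. Reads at a CCGG site therefore increase with its methylation, and unmethylated sites are not cut. The study states that FspEI recognizes 5-hydroxymethylcytosine as well as 5-methylcytosine, so the reads do not tell these apart, and methylation here covers both. The libraries held 31614085 CCGG reads in undifferentiated, 36654600 in untreated and 25767119 in treated cells, at 870345 to 892366 sites, with a median of 23 to 30 reads per site. Sites under 5 reads were not listed by the authors, so an unlisted site can have had up to 4 reads. Levels are given as scaled reads, which are reads per 1000000 CCGG reads of the library, and 10 of the 259 sites lie where the reference has no CCGG. Without replicates, no difference could be compared with a spread between samples, and no test was made. Intervals are exact 95% intervals of counting error only, and PCR copies were counted as separate reads. A site is called higher or lower at a difference of at least 2-fold with unlisted sites set to 4 reads, so that its fold is then a lower bound. The named sites include the largest differences of each gene, picked from these same data, and their intervals make no allowance for that choice.

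The sites that the results below turn on are shown as 30 reference bases (GRCm38, plus strand), with the CCGG site in capitals. Positions in the names are base pairs from the nearest start site of the gene, in the direction of its transcription. The first 6 sequences are promoter sites that were listed or deepest in different libraries.
Klf2 +931, coding exon, chr8:72319951-72319980: agcttcggcggtcCCGGccccgcgttgcac
Tbx3 -759, upstream, chr5:119669897-119669926: ctaccgagctggcCCGGaggtgagggcaaa
Tfcp2l1 +688, intron, chr1:118628621-118628650: tgctttggtgactCCGGgattctttgattt
Prdm14 -44, upstream, chr1:13127194-13127223: ggagggtgcagatCCGGcctcagggtactt
Prdm14 -833, upstream, chr1:13127983-13128012: cgcttctgaggccCCGGgggtccttttgcc
Dppa3 +894, intron, chr6:122627291-122627320: cccttgtgtagcaCCGGagttttgtttgct
The next 9 are sites of the bodies and flanks with large differences between libraries.
Klf2 +1832, coding exon, chr8:72320852-72320881: gccacttgtgcgaCCGGgccttctccaggt
Klf2 +3888, downstream, chr8:72322908-72322937: ccagaatcgtggcCCGGactgcaccaccgt
Klf5 -6885, upstream, chr14:99291793-99291822: gattaaagcactgCCGGgcctatattacat
Klf5 +8706, intron, chr14:99307847-99307876: acattttaattacCCGGgaattttccctag
Tbx3 -5972, upstream, chr5:119664684-119664713: tctgggctctgtcCCGGtataattgaaacc
Zfp42 +11141, coding exon, chr8:43295782-43295811: atacggcttctctCCGGtgtgcaccagaaa
Zfp42 +16442, downstream, chr8:43290481-43290510: agtttattaatgcCCGGggcatcattgaag
Prdm14 +8391, coding exon, chr1:13118759-13118788: tcaccaggtagggCCGGtgcctctcatgga
Dppa3 +12727, downstream, chr6:122639124-122639153: actgaggaagatgCCGGtaatggaaagacc
Each of these 30-base sequences occurs at 1 CCGG motif of the assembled chromosomes.

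The 8 promoters were sparsely methylated in undifferentiated cells and held more listed sites on day 7. Of their 96 CCGG motifs, 9 were listed in undifferentiated cells (9.38%, interval 4.38 to 17.1%), 17 in untreated cells (17.7%, 10.7 to 26.8%) and 16 in treated cells (16.7%, 9.84 to 25.6%). These intervals overlap, and neighbouring sites can be read from the same fragments. Over all protein-coding genes, 16.0%, 21.7% and 25.5% of promoter motifs were listed in the 3 libraries. The untreated share of the 8 genes was thus somewhat below that of all genes, and the treated share further below it. Summed over the 8 promoters, reads were 119 in undifferentiated, 282 in untreated and 207 in treated cells, or 3.76, 7.69 and 8.03 scaled reads. The untreated sum was 2.04-fold the undifferentiated sum, or between 1.36 and 2.25-fold with unlisted sites at 0 to 4 reads. The treated sum was 2.13-fold (1.42 to 2.46). The same sums over all protein-coding genes were 1.09-fold and 1.23-fold, but they differed by the CpG ratio of the promoter, the number of CpGs relative to that given by the base composition. In the middle class of ratios (0.48 to 0.75), which holds Klf2, Zfp42 and Prdm14, they were 1.18-fold and 1.60-fold over all genes and 2.66-fold and 1.84-fold over the members. Above 0.75, the class of Klf4, Klf5 and Tbx3, they were 1.33-fold and 1.78-fold over all genes, and below 0.48 1.06-fold and 1.15-fold, against 1.30-fold and 1.80-fold for Tfcp2l1 and Dppa3. All these class folds take unlisted sites as 0 reads and have no bound. In the middle class they rest on few reads, 5, 49 and 13 for Klf2, 7, 15 and 0 for Zfp42 and 34, 78 and 56 for Prdm14. Scaled to all mapped reads in place of CCGG reads, the treated sum of the 8 promoters was 1.32-fold the undifferentiated sum, with a range of 0.876 to 1.52 for unlisted sites, which includes equal sums. The same factor of 0.618 then applies to the 1.23-fold over all genes, so the members keep their relation to all genes. Treated and untreated sums of the 8 promoters differed by 1.04-fold, with an interval of 0.868 to 1.25.

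The share of listed motifs was lowest within 1 kb of a start site and highest beyond 10 kb in each library. It was 9.38 to 17.7% over the libraries within 1 kb, 40.8 to 48.7% at 1 to 3 kb, 45.9 to 52.5% at 3 to 10 kb and 66.7 to 72.9% beyond 10 kb. From 1 to 3 kb to 3 to 10 kb, it was higher at the longer distance in undifferentiated and untreated cells but not in treated cells (48.7% and 46.7%). The share decreased with the CpG ratio of the surrounding 500 bases. Among motifs whose 30 bases occur at a single CCGG motif, 71.4 to 74.5% were listed at a ratio of up to 0.25, and 8.70 to 17.4% above 0.75. Distance and CpG ratio are related in these windows, and their parts were not told apart.

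**Figure D1:**
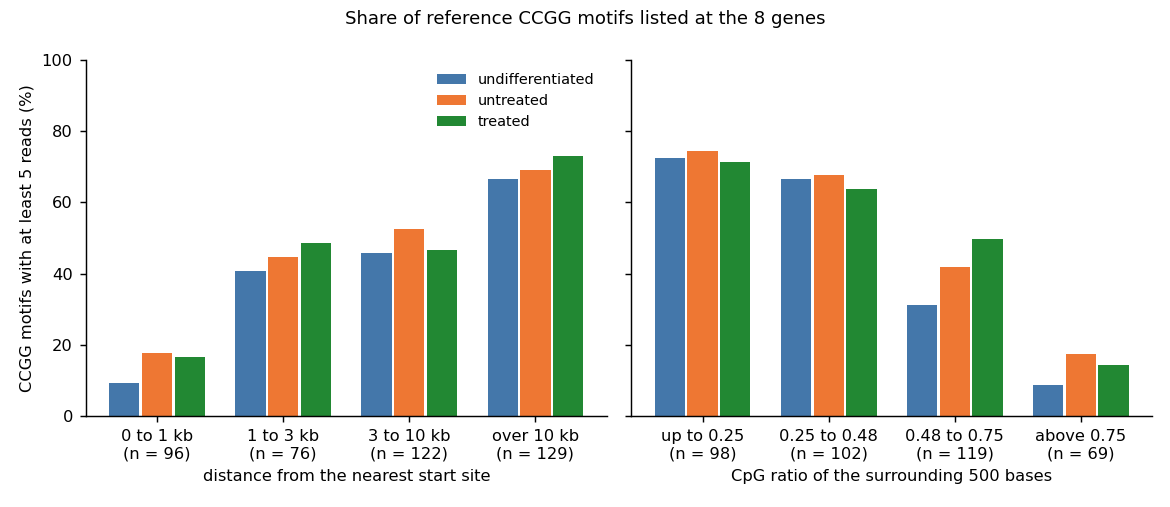
Share of the reference CCGG motifs in the windows of the 8 genes that had at least 5 reads (%, vertical axis), by distance from the start site (left) and by CpG ratio of the surrounding 500 bases (right, motifs with a single genomic copy), with 1 bar per library and the number of motifs below each bin. Shares were 9.38 to 17.7% within 1 kb and 66.7 to 72.9% beyond 10 kb.

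The promoters differed widely in CpG content. The CpG ratio within 1 kb of the start sites was 0.866 for Klf5, 0.864 for Klf4, 0.816 for Tbx3 and 0.726 for Klf2. It was 0.580 for Prdm14, 0.507 for Zfp42, 0.470 for Tfcp2l1 and 0.416 for Dppa3. None of the 49 motifs of the 3 most CpG-rich promoters was listed in undifferentiated cells, and 4 were listed in each day 7 library. Over all promoters with a ratio above 0.75, 4.74% of motifs were listed in undifferentiated, 9.54% in untreated and 11.3% in treated cells. For these 3 genes the shares on day 7 were 8.16% in both libraries. In the middle class, which holds Klf2, Zfp42 and Prdm14, 6, 9 and 7 of 33 motifs were listed (18.2%, 27.3% and 21.2%), against 12.0%, 18.6% and 23.0% over all genes of the class. Tfcp2l1 and Dppa3, the least CpG-rich, had 3, 4 and 5 of 14 motifs listed (21.4%, 28.6% and 35.7%), below the 37.6%, 42.5% and 47.7% of their class.

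At single promoter sites, 7 of 18 sites listed in either library were called higher in untreated than in undifferentiated cells (38.9%, against 17.3% of promoter sites over all genes), and 0 were called lower (against 14.7%). These sites lay at Klf2, Tfcp2l1 and Prdm14. In treated against undifferentiated cells, 7 of 19 were called higher (36.8%, against 37.7%) and 0 lower (against 8.99%), at Klf2, Tbx3, Prdm14 and Dppa3. Between the day 7 libraries, 8 of 24 were higher in treated cells (33.3%, against 32.2%) and 5 were lower (20.8%, against 3.95%). The 5 lower sites were 2 at Klf2 and 1 each at Tfcp2l1, Zfp42 and Prdm14. Most of these sites are shallow, and only 5 of the 24 had at least 20 reads in a day 7 library, of which 1 was higher in treated cells (against 16.8% over all genes) and 2 were lower (against 6.80%). The call also depends on depth. A site unlisted in the other library needs 6 reads to be called higher in treated than in untreated cells and 12 to be called lower.

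**Figure D2:**
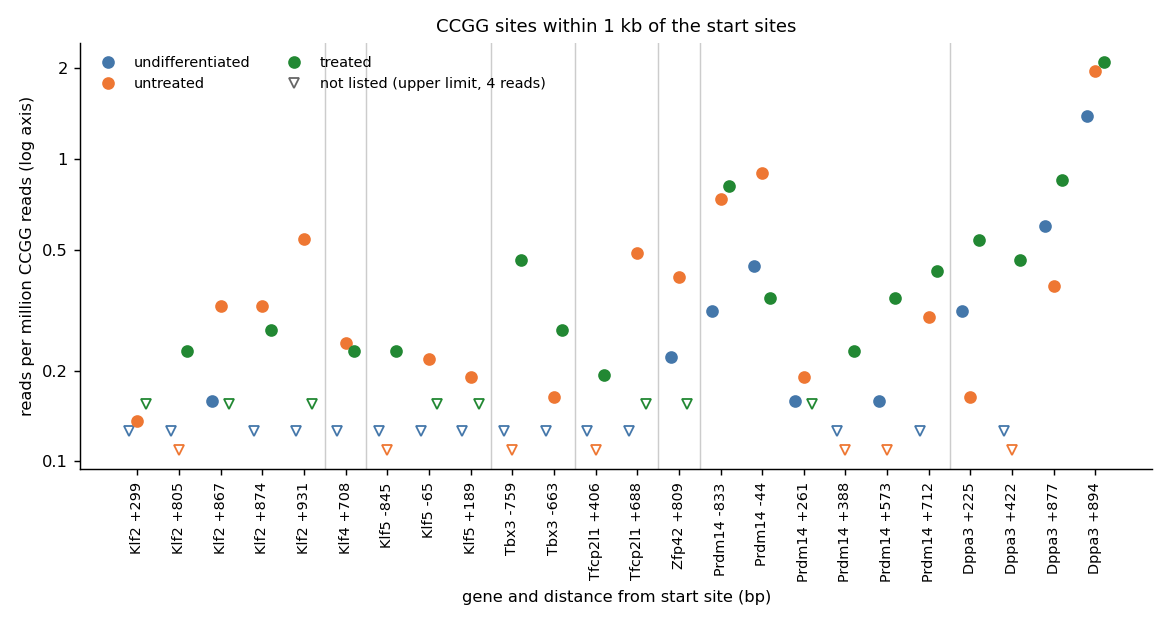
Scaled reads (reads per 1000000 CCGG reads) (log axis) at the 24 promoter sites listed in any library, named by gene and distance from the start site (bp). Filled circles are listed values, and open triangles mark the upper limit of 4 reads for an unlisted site. Klf2 +931 and Tfcp2l1 +688 are listed in untreated cells alone, and at each of the 4 Dppa3 sites the treated value is the highest of the 3.

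The Krüppel-like factors KLF2, KLF4 and KLF5 are zinc finger proteins that bind related GC-rich motifs and support self-renewal of ESCs. Klf2 (chr8:72319033-72321656, plus strand) had large differences between the day 7 libraries. Its promoter sum was 5 reads in undifferentiated, 49 in untreated and 13 in treated cells. The untreated promoter sum was 8.45-fold the undifferentiated sum (interval 3.39 to 27.2, listed reads only). With unlisted sites at 4 reads it was at least 2.01-fold, which lies below that interval and has no counting interval of its own. Of the promoter sums with at least 20 reads, 7.95% over all genes were at least 2-fold higher in this comparison, and 6.18% lower. Klf2 was higher and none lower among the 3 members with this depth (Klf2, Prdm14 and Dppa3). Scaled to mapped reads, the bound was 1.61-fold and Klf2 was not called. In treated against undifferentiated cells, 0 of 2 members with this depth were called (against 21.9% higher and 5.48% lower), and in treated against untreated cells 0 of 3 (against 13.3% and 1.72%). Its 5 promoter sites lie in the transcribed part. Klf2 +931 had 0, 20 and 0 reads in undifferentiated, untreated and treated cells, at least 4.31-fold higher in untreated than in undifferentiated cells. Klf2 +867 had 5, 12 and 0 reads and Klf2 +874, only 7 bp away, had 0, 12 and 7 reads. Klf2 +299 had 0, 5 and 0 reads and Klf2 +805 had 0, 0 and 6 reads. The untreated library was thus highest at 3 of the 5 sites, whereas at Klf2 +299 an unlisted treated site of up to 4 reads could exceed it.

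The body of Klf2 showed the same order of the day 7 libraries with more reads. Klf2 +1832, in the coding exon, had 19, 51 and 7 reads (0.601, 1.39 and 0.272 scaled reads), 2.32-fold higher in untreated than in undifferentiated cells (interval 1.34 to 4.15). It was 5.12-fold lower in treated than in untreated cells (2.31 to 13.4). Klf2 +1990, in the 3′ UTR, had 45, 27 and 5 reads and was lowest in treated cells, 7.34-fold below undifferentiated cells (2.92 to 23.7). Both body sites together gave 64, 78 and 12 reads, so that the treated sum was 4.57-fold below the untreated sum (2.47 to 9.22) and 4.35-fold below the undifferentiated sum (2.32 to 8.85). Among body sums with at least 20 reads over all genes, 0.539% were at least 2-fold lower in treated than in untreated cells, and 2.51% than in undifferentiated cells. Klf2 was the only member of the 8 called lower in either. Scaled to mapped reads, the body sums of Klf2 and Zfp42 (0.321 of untreated) were called lower in treated than in untreated cells (against 1.86% over all genes), and those of Klf2, Zfp42 (0.258 of undifferentiated) and Prdm14 (0.476) than in undifferentiated cells (against 18.0%). In untreated against undifferentiated cells, 0 of 8 body sums were called (against 1.60% higher and 2.51% lower). Klf2 +3888, downstream of the gene, had 40 and 52 reads in undifferentiated and untreated cells and was not listed in treated cells, at least 9.14-fold lower than in untreated cells. The site with the most scaled reads over the libraries, Klf2 -6197, where the reference has no CCGG, had 77, 71 and 67 reads, with treated 1.07-fold the undifferentiated level (0.758 to 1.50). Klf2 +5107 was lower in untreated cells, with 31, 16 and 19 reads (2.25-fold, 1.19 to 4.40). Upstream, Klf2 -7066, also without a CCGG in the reference, had 29, 16 and 5 reads and was also lowest in treated cells, 4.73-fold below undifferentiated cells (1.81 to 15.6) and 2.25-fold below untreated cells (0.787 to 7.85). Klf2 +1832, Klf2 +1990 and Klf2 -7066 lie outside the rule for named sites and were chosen after their values were seen, as were Tbx3 -7821 and Zfp42 +11141.

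**Figure D3:**
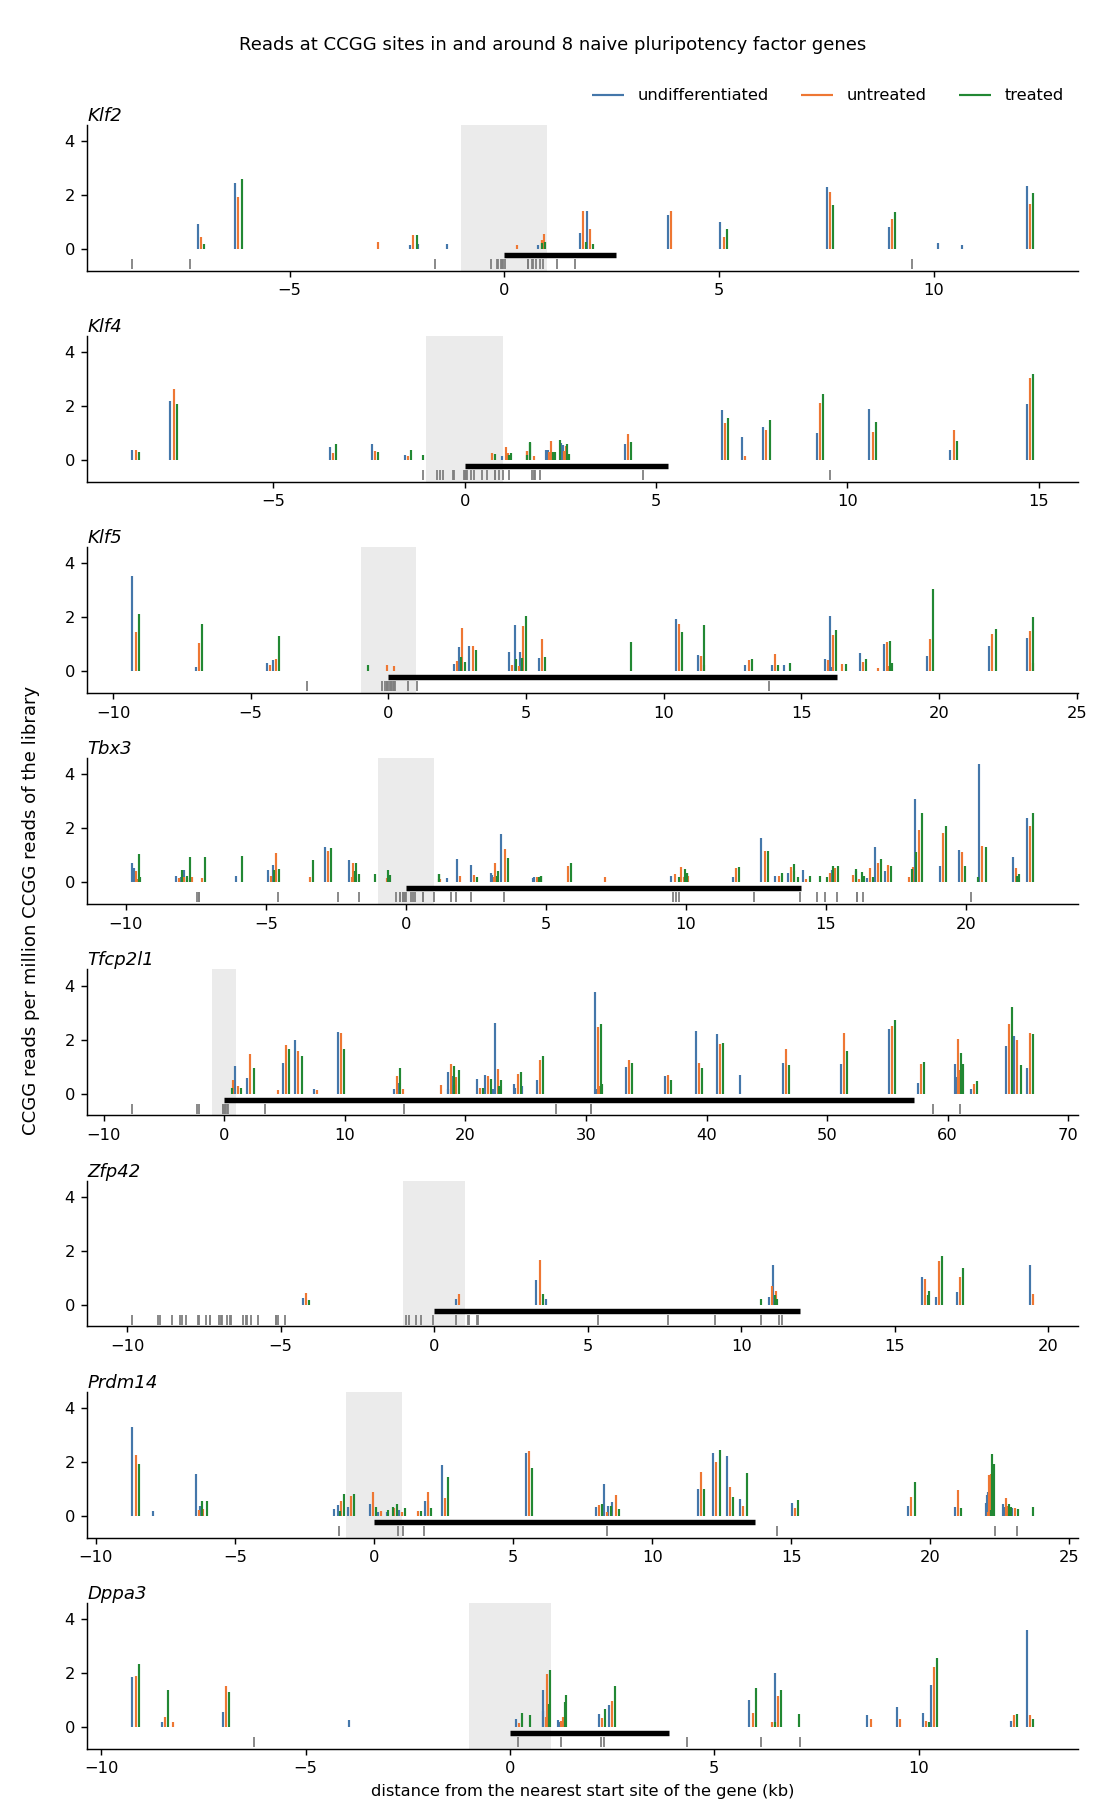
Scaled reads (reads per 1000000 CCGG reads) (vertical axis) at each listed CCGG site against the distance from the nearest start site (kb, horizontal axis), with a panel per gene and a line per library. Lines of 1 site are set slightly apart. The black bar is the gene, grey shading is 1 kb around its 5′ end, and grey ticks mark motifs listed in no library. Unlisted motifs cluster at start sites, and upstream of Zfp42. In Klf2 the treated lines are short or absent between the start site and Klf2 +3888.

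Klf4 (chr4:55527143-55532466, minus strand) is a direct target of LIF and STAT3 signalling. Of its 17 promoter motifs, 1 was listed. Klf4 +708, in an intron, had 0, 9 and 6 reads, below the 2-fold limit in each comparison with unlisted reads at 4. The gene body gave 91, 161 and 123 reads at 12 sites, 1.53-fold higher in untreated (1.17 to 2.00) and 1.66-fold higher in treated cells (1.25 to 2.20) than in undifferentiated cells. These differences fell short of the 2-fold limit, and scaled to mapped reads they were 1.22-fold and 1.02-fold. Downstream, Klf4 +7316 had 27, 5 and 0 reads, 6.26-fold lower in untreated than in undifferentiated cells (2.38 to 20.8) and at least 5.50-fold lower in treated cells. Klf4 +9275 had the opposite order, with 32, 77 and 63 reads, 2.08-fold higher in untreated (1.36 to 3.24) and 2.42-fold higher in treated cells (1.55 to 3.82). Klf4 +12770 had 12, 41 and 18 reads (2.95-fold higher in untreated cells, 1.52 to 6.16). In the coding exon, Klf4 +2265 had 12, 26 and 8 reads, 2.28-fold lower in treated than in untreated cells, with an interval from equal levels to 5.84-fold. Klf4 +14772, the Klf4 site with the most scaled reads, had 65, 111 and 82 reads.

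Klf5 (chr14:99298691-99315036, plus strand) had 3 of 16 promoter motifs listed, all shallow and none in undifferentiated cells. Klf5 -65 had 0, 8 and 0 reads, Klf5 +189, in the 5′ UTR, had 0, 7 and 0 reads, and Klf5 -845 had 0, 0 and 6 reads. These sites do not pass 2-fold against undifferentiated cells. Larger differences lay elsewhere. Klf5 -6885 had 5, 38 and 45 reads (0.158, 1.04 and 1.75 scaled reads), 6.55-fold higher in untreated (2.58 to 21.3) and 11.0-fold higher in treated cells (4.40 to 35.6) than in undifferentiated cells. Klf5 +8706, in an intron, was listed in treated cells alone, with 28 reads, at least 9.96-fold higher than in untreated and at least 8.59-fold higher than in undifferentiated cells. Other sites of the gene were lower in 1 or both day 7 libraries. Klf5 +4730, in an intron of the principal transcript and in the 3′ UTR of a shorter one, had 54, 7 and 13 reads, 8.94-fold lower in untreated (4.06 to 23.3) and 3.39-fold lower in treated cells (1.82 to 6.76). Klf5 +2680, in a coding exon, had 29, 59 and 9 reads, 1.75-fold higher in untreated than in undifferentiated cells (1.11 to 2.84) and 4.61-fold lower in treated than in untreated cells (2.27 to 10.6). The site with the most scaled reads, Klf5 -9180, had 111, 54 and 55 reads, 2.38-fold lower in untreated cells (1.71 to 3.36). The body sums of 299, 361 and 270 reads differed by 1.04-fold (0.891 to 1.22) between untreated and undifferentiated cells.

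TBX3 is a T-box transcription factor that acts downstream of LIF through kinase signalling. Tbx3 (chr5:119670669-119684724, plus strand) had the most CCGG motifs of the 8 genes, 102, and 45 of its 53 flank sites lie in the antisense transcripts Tbx3os1 and Tbx3os2. DNA reads do not distinguish between these overlapping genes. At the promoter, 2 of 16 motifs were listed. Tbx3 -759 had 0, 0 and 12 reads, at least 4.27-fold higher in treated than in untreated cells, and Tbx3 -663 had 0, 6 and 7 reads. The flanks gave 689, 701 and 689 reads (21.8, 19.1 and 26.7 scaled reads), 1.40-fold higher in treated than in untreated cells (1.26 to 1.56). Scaled to mapped reads, this ratio is multiplied by 0.771. Over the whole window, 18 of 64 sites were called higher in treated than in untreated cells (28.1%, against 16.7% of all CCGG sites) and 3 lower (4.69%, against 6.07%). With at least 20 reads, 5 of 26 were higher (19.2%, against 9.27%) and 2 lower (7.69%, against 6.74%).

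Single sites of Tbx3 showed these differences far upstream. Tbx3 -5972 had 7, 0 and 25 reads, at least 8.89-fold higher in treated than in untreated cells and 4.38-fold higher than in undifferentiated cells (1.84 to 12.0). Tbx3 -7821 had 14, 6 and 24 reads, 5.69-fold higher in treated than in untreated cells (2.27 to 17.0). Untreated cells were lowest at both. In introns, Tbx3 +1943 had 28, 9 and 0 reads, 3.61-fold lower in untreated (1.65 to 8.69) and at least 5.71-fold lower in treated than in undifferentiated cells. Tbx3 +5791 had 0, 22 and 19 reads, and Tbx3 +18099, downstream, had 0, 21 and 29 reads. The latter was at least 4.53-fold higher in untreated and at least 8.90-fold higher in treated cells than in undifferentiated cells. Tbx3 +16589 was highest in untreated cells, with 5, 20 and 5 reads. Tbx3 +18314, the Tbx3 site with the most scaled reads, had 98, 71 and 66 reads.

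TFCP2L1 is a CP2-family transcription factor and a further target of STAT3. Tfcp2l1 (chr1:118627945-118685168, plus strand) is the longest of the 8 genes, and most of its CpG-poor body was listed in all libraries. The body gave 952, 1035 and 662 reads at 32 sites (30.1, 28.2 and 25.7 scaled reads). At the promoter, 2 of 9 motifs were listed. Tfcp2l1 +688 had 0, 18 and 0 reads, at least 3.88-fold higher in untreated than in undifferentiated and at least 3.16-fold higher than in treated cells. Tfcp2l1 +406 had 0, 0 and 5 reads.

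In the introns of Tfcp2l1, sites differed in both directions between day 0 and day 7. Tfcp2l1 +43006 had 22 reads in undifferentiated cells and was unlisted on day 7, at least 6.38-fold lower in untreated and at least 4.48-fold lower in treated cells. Tfcp2l1 +1149 had 32, 11 and 5 reads, 3.37-fold lower in untreated (1.66 to 7.42) and 5.22-fold lower in treated cells (2.02 to 17.1). Tfcp2l1 +14339 had 6, 24 and 24 reads, 3.45-fold higher in untreated (1.37 to 10.3) and 4.91-fold higher in treated cells (1.95 to 14.7). The site with the most scaled reads, Tfcp2l1 +30977, had 119, 91 and 66 reads. The flanks gave 225, 410 and 276 reads at 7 sites, 1.57-fold higher in untreated (1.33 to 1.86) and 1.51-fold higher in treated (1.26 to 1.80) than in undifferentiated cells. Scaled to mapped reads, these ratios are multiplied by 0.802 and 0.618, which puts the treated sum below the undifferentiated sum. Between the day 7 libraries, 0 of the 25 Tfcp2l1 sites with at least 20 reads were called in either direction (against 9.27% higher and 6.74% lower over all CCGG sites at this depth).

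Zfp42, known as Rex1, encodes a zinc finger protein that is widely used as a marker of naive ESCs. Its window (gene at chr8:43295063-43306980, minus strand) had the fewest listed sites, 13 in any library. Of its 43 reference motifs that were never listed, 29 have 30 bases that occur at more than 1 CCGG motif, 26 of them in the flanks, and only uniquely mapped reads were counted. Of its 12 sites listed on day 7, 7 were called lower in treated than in untreated cells (58.3%, against 6.07% of all CCGG sites) and 3 higher (against 16.7%). With at least 20 reads, 3 of 5 were lower (60.0%, against 6.74%) and 0 higher (against 9.27%). The median log2 ratio over the 6 sites listed in both was -1.10.

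Zfp42 +809, the promoter site, had 7, 15 and 0 reads. Zfp42 +3433, in an intron and at a position with no CCGG in the reference, had 29, 61 and 10 reads, 4.29-fold lower in treated than in untreated cells (2.18 to 9.39). Zfp42 +11141, in the coding exon, had 46, 19 and 0 reads, 2.81-fold lower in untreated (1.61 to 5.07) and at least 9.37-fold lower in treated than in undifferentiated cells. The body sums were 91, 106 and 31 reads. The treated sum was 2.40-fold below the untreated sum (1.60 to 3.71). With unlisted sites at 0 to 4 reads it was between 0.374 and 0.523 of the untreated sum, so the body as a whole was not called, although it was with mapped-read scaling. Downstream, Zfp42 +16442 went the other way, with 9, 60 and 46 reads, 5.75-fold higher in untreated (2.84 to 13.2) and 6.27-fold higher in treated cells (3.03 to 14.6) than in undifferentiated cells. Zfp42 +19508, also without a CCGG in the reference, had 47, 14 and 0 reads, 3.89-fold lower in untreated cells (2.11 to 7.66).

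PRDM14 is a PR-domain protein that represses genes of differentiation and of DNA methylation in naive cells and in germ cell precursors. Prdm14 (chr1:13113457-13127163, minus strand) had the most listed promoter sites of the 8 genes, 6 of 7 motifs. The promoter sums were 34, 78 and 56 reads (1.08, 2.13 and 2.17 scaled reads), 1.98-fold higher in untreated (1.31 to 3.05) and 2.02-fold higher in treated (1.30 to 3.19) than in undifferentiated cells. With unlisted sites at 4 reads, the sums differed by at least 1.60-fold and 1.64-fold, below the limit for a call. Scaled to mapped reads, the promoter sums were 1.59-fold and 1.25-fold the undifferentiated sum. Prdm14 -833 had 10, 27 and 21 reads, 2.33-fold higher in untreated (1.09 to 5.39) and 2.58-fold higher in treated cells (1.16 to 6.13). Prdm14 -44, next to the start site, had 14, 33 and 9 reads, 2.03-fold higher in untreated than in undifferentiated cells (1.06 to 4.11) and 2.58-fold lower in treated than in untreated cells (1.21 to 6.12). These upstream sites therefore had different orders of the 3 libraries. In the intron, Prdm14 +712 had 0, 11 and 11 reads, Prdm14 +573 had 5, 0 and 9, Prdm14 +388 had 0, 0 and 6, and Prdm14 +261 had 5, 7 and 0 reads.

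The body of Prdm14 was lower on day 7, with 446, 397 and 280 reads (14.1, 10.8 and 10.9 scaled reads), 1.30-fold below undifferentiated cells in untreated (1.14 to 1.49) and in treated cells (1.12 to 1.51). Prdm14 +8391, in a coding exon, had 37, 5 and 10 reads, 8.58-fold lower in untreated (3.36 to 28.0) and 3.02-fold lower in treated cells (1.47 to 6.80). Prdm14 +12798, in a coding exon, had 70, 39 and 18 reads and was 3.17-fold lower in treated than in undifferentiated cells (1.87 to 5.66). Prdm14 +13282, in the 3′ UTR, had 20, 14 and 41 reads, 4.17-fold higher in treated than in untreated cells (2.22 to 8.27). Downstream, Prdm14 +22105 had 15, 55 and 59 reads, 3.16-fold higher in untreated (1.76 to 6.03) and 4.83-fold higher in treated cells (2.70 to 9.16). Prdm14 +20993 had 10, 35 and 8 reads, 3.08-fold lower in treated than in untreated cells (1.40 to 7.67). Prdm14 -8575, the Prdm14 site with the most scaled reads, had 104, 83 and 50 reads.

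DPPA3, also called Stella, is a maternal factor that protects the maternal genome of the zygote from loss of DNA methylation. Dppa3 (chr6:122626410-122630272, plus strand) had the deepest promoter of the 8 genes, with 73, 92 and 102 reads at 4 of 5 motifs (2.31, 2.51 and 3.96 scaled reads). The treated promoter sum was 1.71-fold the undifferentiated sum (1.26 to 2.35) and 1.58-fold the untreated sum (1.18 to 2.11). Scaled to mapped reads, these ratios were 1.06-fold and 1.22-fold. Dppa3 +894 had 44, 72 and 54 reads, and Dppa3 +877, 17 bp away, had 19, 14 and 22 reads. Dppa3 +225 had 10, 6 and 14 reads, and Dppa3 +422 was listed in treated cells alone with 12 reads. At the first of these sites the day 7 libraries were alike, with treated 1.07-fold the untreated level (0.735 to 1.54).

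In the body of Dppa3, reads were 56, 72 and 111 at 4 sites (1.77, 1.96 and 4.31 scaled reads), 2.19-fold higher in treated than in untreated (1.62 to 2.99) and 2.43-fold higher than in undifferentiated cells (1.75 to 3.42). Over all genes, 1.75% of body sums with at least 20 reads were at least 2-fold higher in treated than in untreated cells, and 3.28% than in undifferentiated cells. Dppa3 was the only member called higher in either. Scaled to mapped reads, these sums differed by 1.69-fold and 1.50-fold, below the limit for a call. Dppa3 +1257 had 8, 9 and 24 reads, 3.79-fold higher in treated than in untreated cells (1.70 to 9.27). In the whole window, 8 of 22 sites were called higher and 0 lower in treated than in untreated cells (against 16.7% and 6.07% of all CCGG sites). Upstream, Dppa3 -8444 had 6, 14 and 35 reads, 7.16-fold higher in treated than in undifferentiated cells (2.98 to 20.8), and Dppa3 -6941 had 18, 56 and 34 reads. Dppa3 +12727 showed the reverse, with 114, 17 and 8 reads (3.61, 0.464 and 0.310 scaled reads), 7.78-fold lower in untreated (4.65 to 13.8) and 11.6-fold lower in treated cells (5.70 to 27.6). The site with the most scaled reads over the libraries, Dppa3 +10368, had 49, 81 and 66 reads.

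**Figure D4:**
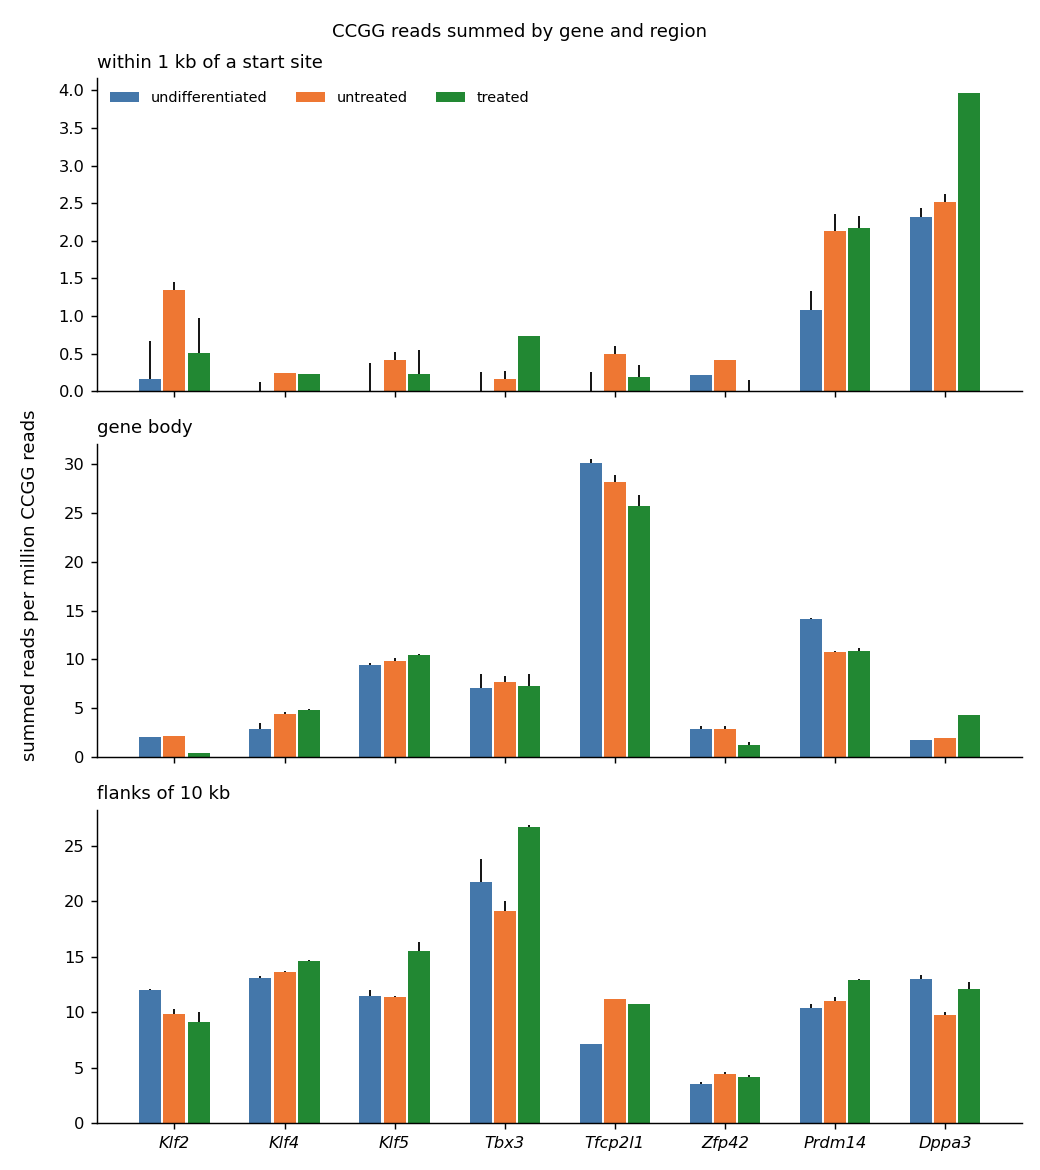
Scaled reads (reads per 1000000 CCGG reads) summed over the CCGG sites of each gene, in the promoter (top), body (middle) and flanks (bottom), with a bar per library. Black lines end at the value with unlisted sites at 4 reads. Sums follow the number of sites and are to be compared between libraries of a gene, not between genes. The treated body sum is the lowest of the 3 in Klf2, Zfp42 and Tfcp2l1 and the highest in Klf4, Klf5 and Dppa3.

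Over all 8 genes, sites were called in both directions from day 0 to day 7. In untreated against undifferentiated cells, 50 of 234 sites were called higher (21.4%, against 16.1% of all CCGG sites) and 40 lower (17.1%, against 19.5%). The median log2 ratio over the 170 sites listed in both was -0.01, and 0.04 over all CCGG sites. In treated against undifferentiated cells, 67 of 243 were higher (27.6%, against 23.7%) and 38 lower (15.6%, against 17.8%), with a median of 0.19 and 0.07 over all sites. Between the day 7 libraries, 51 of 245 were higher in treated cells (20.8%, against 16.7%) and 29 lower (11.8%, against 6.07%), with a median of 0.17 and 0.05 over all sites. The share of higher sites was thus somewhat above that of all sites in each comparison. The share of lower sites was above it in treated against untreated cells and somewhat below it in the other comparisons. With at least 20 reads in either library, 31 of 125 sites were higher (24.8%, against 17.0%) and 21 lower (16.8%, against 18.1%) in the first comparison. In the second, 29 of 114 were higher (25.4%) and 25 lower (21.9%), against 20.6% in each direction. In the third, 17 of 118 sites were lower (14.4%, against 6.74%) and 16 higher (13.6%, against 9.27%). Of the 29 lower sites, 6 were among the 16 of Klf2 and 7 among the 12 of Zfp42. The other 6 genes had 16 of 217 sites lower (7.37%), a split made after these values were seen, which by its choice has a lower share.

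Scaled to all mapped reads in place of CCGG reads, the median over the sites listed in all 3 libraries moved to -0.24 in untreated against undifferentiated, -0.62 in treated against undifferentiated and -0.37 in treated against untreated cells, from 0.08, 0.07 and 0.01. The split of the members then became 29 higher and 58 lower in the first comparison (12.4% and 24.8%, against 9.85% and 26.4% of all CCGG sites under this scaling). It became 30 higher and 74 lower in the second (12.3% and 30.5%, against 10.5% and 35.6%), and 33 higher and 47 lower in the third (13.5% and 19.2%, against 9.17% and 15.4%). Under that scaling, every ratio of untreated to undifferentiated cells is multiplied by 0.802, of treated to undifferentiated cells by 0.618 and of treated to untreated cells by 0.771. The promoter sums of the 8 genes were then 1.64-fold the undifferentiated sum in untreated and 1.32-fold in treated cells, and the treated sum was 0.805 of the untreated sum. Directions here are relative to the CCGG reads of each library.

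**Figure D5:**
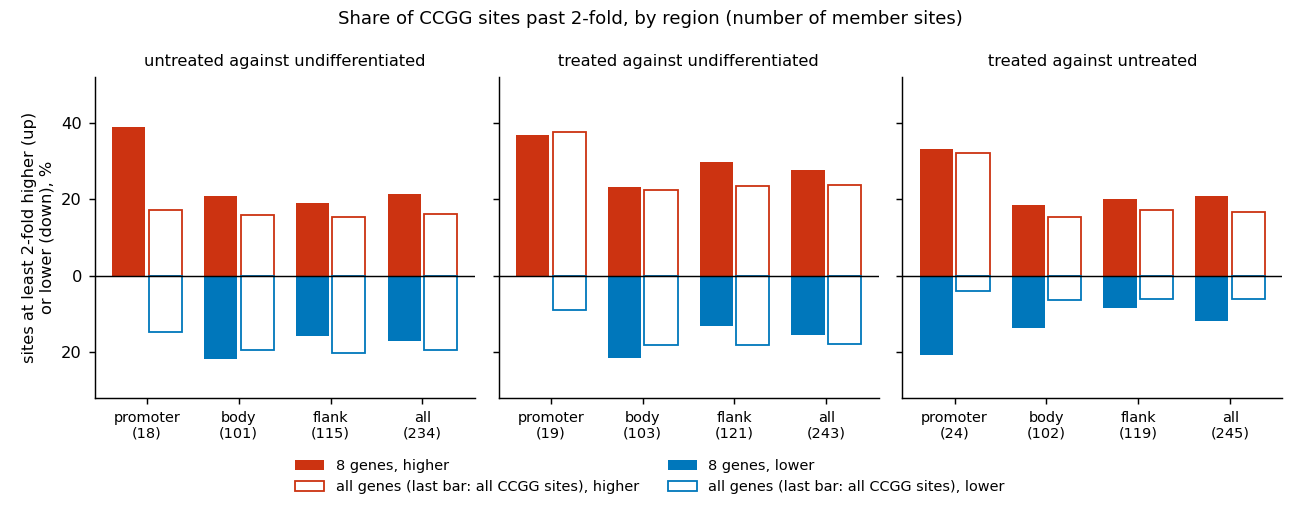
Share of CCGG sites at least 2-fold higher (upward bars) or lower (downward bars) in each comparison, by region. Filled bars are the 8 genes, with the number of sites in parentheses, and open bars are the same region of all protein-coding genes, or all CCGG sites for the last pair. In treated against untreated cells, 20.8% of promoter and 13.7% of body sites of the 8 genes were lower, against 3.95% and 6.29%.

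By region, body sites gave 21 higher and 22 lower of 101 in untreated against undifferentiated cells (20.8% and 21.8%, against 15.8% and 19.4% of body sites over all genes). Flank sites gave 22 higher and 18 lower of 115 (19.1% and 15.7%, against 15.4% and 20.3%). In treated against undifferentiated cells, 24 of 103 body sites were higher and 22 lower (23.3% and 21.4%, against 22.5% and 18.2%), and 36 of 121 flank sites were higher and 16 lower (29.8% and 13.2%, against 23.6% and 18.2%). In treated against untreated cells, 19 of 102 body sites were higher (18.6%, against 15.3%) and 14 lower (13.7%, against 6.29%). In the flanks, 24 of 119 were higher (20.2%, against 17.3%) and 10 lower (8.40%, against 6.02%), with a median log2 ratio of 0.28, against 0.06 over all flank sites. Scaled to mapped reads, the median of the members was -0.09, and that over all flank sites moves down by the same amount. The flank sums of the 8 genes were 92.5, 90.5 and 106 scaled reads and the body sums 70.3, 68.0 and 65.0. Of the 259 member sites, 152 were listed in all 3 libraries (58.7%, against 71.9% of all CCGG sites). In treated cells alone 25 were listed (9.65%, against 5.66%), in untreated cells alone 16 (6.18%, against 3.07%) and in both but not in undifferentiated cells 26 (10.0%, against 6.46%). In undifferentiated and untreated but not in treated cells, 18 were listed (6.95%, against 4.65%).

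A list of 20 further genes of the naive network, among them Nanog, Pou5f1, Sox2 and Esrrb, had 140 of 796 sites higher and 126 lower in untreated against undifferentiated cells (17.6% and 15.8%, against 16.1% and 19.5% of all CCGG sites). In treated against undifferentiated cells, 228 of 832 were higher and 112 lower (27.4% and 13.5%, against 23.7% and 17.8%). In treated against untreated cells, 174 of 832 were higher (20.9%, against 16.7%) and 54 lower (6.49%, against 6.07%). The 8 genes had 11.8% lower, with 6 of the 29 lower sites in Klf2 and 7 in Zfp42. For 12 genes of the formative and primed states, these numbers were 161 and 31 of 600 (26.8% and 5.17%), and for 14 housekeeping genes 45 and 20 of 313 (14.4% and 6.39%). The promoters of the 20 network genes had 10.2%, 21.7% and 23.8% of their motifs listed in undifferentiated, untreated and treated cells, those of the formative and primed genes 2.23%, 6.69% and 17.5%, and those of the housekeeping genes 5.81%, 16.8% and 13.5%. The median promoter log2 ratio of the 8 genes to undifferentiated cells, with unlisted sites at 4 reads, was 0.85 in untreated and 0.62 in treated cells. Nearest to this pair among the 20 genes, over 3 libraries, were Dppa5a (0, 8 and 6 promoter reads, 0.79 and 0.88), the LIF co-receptor gene Il6st (11, 29 and 25 reads, 0.40 and 0.91) and Sall4 (0, 28 and 18 reads, 1.01 and 1.17). Dppa5a and Sall4, like Klf4, Klf5, Tbx3 and Tfcp2l1, had 0 promoter reads in undifferentiated cells. Their ratios, and their nearness, therefore depend on the 4 reads set for unlisted sites.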

How the data were processed

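The authors trimmed reads, kept those with an FspEI site and mapped them to GRCm38 (Bowtie2 2.3.3 per the labels) with up to 1 mismatch, kept unique hits and removed sites under 5 reads. Per the file headers, each deposited table gives a count and a value in reads per 1000000 mapped reads (RPM) per site. Counts were used, and RPM only to recover the mapped reads. There was 1 library per condition.

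CCGG rows were annotated with GENCODE M21 on GRCm38. Counts were divided by the CCGG reads of the library (31614085, 36654600 and 25767119), and unlisted rows were set to 4 reads. A call is a difference of at least 2-fold. Ratios have exact conditional 95% intervals. Named were all promoter sites listed in any library (the 6 deepest of a gene), the largest differences per gene, comparison and direction at 20 reads or more, the site with the most scaled reads per gene (summed over libraries) and the 3 nearest network genes. Alternatives covered scaling, unlisted rows, depth, fold limit, site list and promoter definition. Members and lists were chosen with earlier results of these data known. Scripts were tested on simulated data. Python 3.11.15, numpy 2.4.6, pandas 2.3.3 and SciPy 1.17.1 were used.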

Additional observations from a re-analysis of the deposited data

Results flagged for a closer look

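Differences from undifferentiated cells of at least 2-fold had opposite directions in the 2 day 7 libraries at 3 of the 259 member sites, and the difference between the libraries was not tested, since there was 1 library per condition. The share of such sites over all CCGG sites is not given here, so the count is not a trait of these genes. At Klf2 +1832, the log2 ratio to undifferentiated cells was 1.21 in untreated and -1.15 in treated cells, where the interval of the ratio (0.161 to 1.12) includes equal levels. At Tbx3 -7821 it was -1.44 in untreated (ratio 0.116 to 1.02) and 1.07 in treated cells. At Tbx3 -5972 it was -1.02 in untreated cells, where the site was unlisted and set to 4 reads (ratio 0.106 to 1.94), and 2.13 in treated cells. Scaled to mapped reads, Klf2 +1832 in untreated (0.89) and Tbx3 -7821 in treated cells (0.38) fell below the 2-fold limit, and Tbx3 -5972 did not (-1.34 and 1.44).

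Among the CCAGG sites, which the comparisons do not use, 122 sites of the 8 windows were listed in treated and not in undifferentiated cells. The share over all CCAGG sites is not given here, so this number is not read as particular to these genes. The undifferentiated and untreated tables listed 59 CCAGG sites each in these windows, all with equal counts, and the treated table listed 172. The 59 CCTGG sites had equal counts in all 3 tables, so these motifs do not give independent values for each library.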

How the results depend on the processing

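No paired analysis was possible because there was 1 library per condition. For untreated against undifferentiated cells, higher calls (50) became 29 with mapped-read scaling, 31 at 20 reads or more, 88 at 1.5-fold and 6 at 4-fold, and lower calls (40) became 58 with mapped-read scaling, 21 at 20 reads or more, 63 at 1.5-fold and 7 at 4-fold. For treated against undifferentiated cells, higher calls (67) became 30, 29, 105 and 17 under these 4 settings, and lower calls (38) became 74 with mapped-read scaling, 25 at 20 reads or more and 12 at 4-fold. For treated against untreated cells, higher calls (51) became 33, 16, 78 and 10. Lower calls (29) became 47, 17, 48 and 4, and 50 with unlisted sites at 0 and a pseudocount of 1. Apart from the depth limit, these are counts of 234, 243 and 245 sites in the 3 comparisons. Shares of all CCGG sites at 1.5-fold, at 4-fold and with the pseudocount are not given, so those counts show only the dependence on the setting. Promoter sites listed (9, 17 and 16 in undifferentiated, untreated and treated cells) became 2, 5 and 5 within 1 kb upstream only, 41, 52 and 54 within 3 kb, and 5, 10 and 7 at a minimum of 10 reads. With mapped-read scaling, promoter medians fell from 0.69 to 0.37 in untreated and from 0.69 to -0.01 in treated against undifferentiated cells, and went from 0.15 to -0.23 in treated against untreated cells. Body medians were -0.35 in untreated and -0.63 in treated against undifferentiated cells and -0.38 in treated against untreated cells, and flank medians -0.42 in treated against undifferentiated and -0.09 in treated against untreated cells. These shifts follow from the construction of the settings. A restriction to sites whose 30 bases occur at 1 motif, the mapped-read scaling of sums and the count without Klf2 and Zfp42 were chosen after seeing the data, and the first moved no count of calls by over 1.5 times.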
